A study of Homo sapiens with 4 samples.

Results

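The genes described here encode the machinery of nonsense-mediated mRNA decay and the protein complex that marks exon junctions. The list names 9 genes: UPF1, UPF2, UPF3A, UPF3B, SMG1, SMG5, SMG6, MAGOH and RBM8A. A gene was measured if a transcript cluster, the unit of probes that an exon array summarises for a gene, carried its symbol alone in the platform annotation. Of the 9 genes, 6 had such a cluster, 1 each, out of 14232 genes in all: UPF1, UPF2, SMG5, SMG6, MAGOH and RBM8A. SMG1, which has several pseudogene copies, was named by 3 clusters that each carried other symbols too, so it is given no value. UPF3A and UPF3B were named by no cluster of the table and are not analysed here.

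The arrays came from a pair of established human lines stably transfected with a plasmid that expresses an siRNA. In the knockdown arm (ADARkd) the siRNA targets ADAR1, the product of ADAR, an enzyme that turns adenosine into inosine in double-stranded RNA, and in the control arm (SCR) it is scrambled. There were 4 groups: HepG2 ADARkd, HepG2 SCR, K562 ADARkd and K562 SCR, with 1 array each and no replicate. HepG2 derives from a liver tumour and K562 from a chronic myeloid leukaemia. The ADAR siRNA had been picked from several for its strong knockdown, and the labels do not say whether each stable line is a clone or a pool.

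Nonsense-mediated decay removes transcripts whose reading frame ends too early, and it also sets the level of many normal transcripts. During splicing the exon junction complex is placed upstream of each joined exon boundary, where EIF4A3 is clamped on the RNA by the MAGOH-RBM8A pair. A ribosome that stops well before such a complex leaves it in place, and UPF3 and UPF2 then link it to the helicase UPF1. The kinase SMG1 phosphorylates UPF1, after which SMG6 cuts the transcript and SMG5 helps to bring in the enzymes that remove its cap and tail.

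The targeted gene was checked first. ADAR had a log2 intensity of 7.27 in HepG2 ADARkd, against 8.96 in HepG2 SCR, and of 6.78 in K562 ADARkd, against 7.99 in K562 SCR. Its ADARkd intensity was 31.0% of SCR on the arrays labelled HepG2 and 43.2% in K562. Of 9 measured erythroid markers, 8 lay above the median gene in K562 and 1 on the arrays labelled HepG2. Of 13 measured hepatocyte markers, 2 lay above the median gene on the arrays labelled HepG2 and 1 in K562. The 2 were CPS1 (mean 10.73, against 3.25 in K562) and FOXA1 (mean 6.18, against 5.58 in K562). FOXA1 was also the 1 in K562. The other hepatocyte markers lay below it, and the lowest log2 value among the measured ones was 2.10. The label HepG2 is therefore kept as a label only. The 4 array medians ran from 36.1 to 37.0 intensity units, and in each line the brighter 7116 genes, those reaching the median gene, were kept.

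The proximal promoters of MAGOH and RBM8A are shown because the proteins act as a pair while their transcripts gave, in turn, the highest difference on the arrays labelled HepG2 and the lowest in K562 among the measured genes. Each sequence is the 250 bases before the gene's start in RefSeq (GRCh38.p14, minus strand), chr1:53238519-53238768 for MAGOH and chr1:145927485-145927734 for RBM8A. Capitals mark matches to the motifs searched.
MAGOH: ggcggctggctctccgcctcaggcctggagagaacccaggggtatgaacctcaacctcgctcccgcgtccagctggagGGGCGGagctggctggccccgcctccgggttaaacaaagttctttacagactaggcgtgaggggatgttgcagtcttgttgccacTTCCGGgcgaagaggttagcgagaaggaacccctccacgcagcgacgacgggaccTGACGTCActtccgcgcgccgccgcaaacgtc
RBM8A: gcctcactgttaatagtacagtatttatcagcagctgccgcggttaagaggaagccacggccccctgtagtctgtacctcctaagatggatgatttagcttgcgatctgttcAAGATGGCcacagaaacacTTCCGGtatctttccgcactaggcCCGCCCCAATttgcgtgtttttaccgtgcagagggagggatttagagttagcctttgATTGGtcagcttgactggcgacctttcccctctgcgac

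The motifs were the ETS core CCGGAA, the cAMP response element TGACGTCA, the CCAAT box CCAAT, the GC box GGGCGG, the E-box CACGTG, the TATA box TATAAA and the YY1 core AAGATGGC, on either strand. Both promoters held the ETS core, as did 14.5% of 35116 RefSeq promoter windows of this length, and the GC box, as did 42.6%. MAGOH held the cAMP response element, whose first base lay 32 bases before the start, and 1.65% of windows held it. RBM8A held the YY1 core, found in 1.36% of windows, and 2 CCAAT boxes, found in 32.0%. 1 of its CCAAT boxes overlaps its GC box. Neither promoter held the E-box (6.34% of windows) or the TATA box (10.7%). No binding or promoter activity was measured, so these matches only describe the letters. The MAGOH window overlaps the divergent transcript MAGOH-DT and the RBM8A window LIX1L-AS1.

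UPF1, the helicase at the centre of the pathway, stood at 6.59 in HepG2 ADARkd, against 6.65 in HepG2 SCR, on the log2 scale. In K562 it stood at 7.50 in ADARkd, against 7.48 in SCR. UPF1 was thus within 0.1 of its SCR level in each line, and the K562 arrays were the higher pair. UPF2, the adaptor between UPF1 and UPF3, stood at 6.57 in HepG2 ADARkd, against 6.33 in HepG2 SCR, and at 6.99 in K562 ADARkd, against 6.94 in K562 SCR. UPF2 was higher in ADARkd in each line, by 0.24 and 0.05, and the K562 arrays again lay above the others.

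SMG5, which binds phosphorylated UPF1, stood at 7.88 in HepG2 ADARkd, against 7.34 in HepG2 SCR. That difference of 0.54 is a 1.45-fold higher intensity, at rank 1019 from the highest of 7116 kept genes. In K562 SMG5 stood at 7.56 in ADARkd, against 7.61 in SCR. The arrays labelled HepG2 were its extremes, ADARkd at the top and SCR at the bottom, with the K562 arrays between them. SMG6, the endonuclease that cuts the target near the stop codon, stood at 5.78 in HepG2 ADARkd, against 5.80 in HepG2 SCR, and at 5.56 in K562 ADARkd, against 5.63 in K562 SCR. SMG6 was within 0.1 of its SCR level in each line, and its levels were near the filter levels of 5.31 and 5.28.

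MAGOH, a subunit of the exon junction core, stood at 7.47 in HepG2 ADARkd, against 6.30 in HepG2 SCR, and at 7.43 in K562 ADARkd, against 7.67 in K562 SCR. The HepG2 SCR array was the low one, and the other 3 arrays lay between 7.43 and 7.67. MAGOH was 2.24-fold higher in ADARkd on the arrays labelled HepG2 (log2 difference 1.16), at rank 104 from the highest of 7116 kept genes. In K562 the difference was -0.24, at rank 1165 from the lowest.

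RBM8A, also called Y14, which binds MAGOH as an obligate partner, stood at 6.33 in HepG2 ADARkd, against 6.23 in HepG2 SCR, and at 6.21 in K562 ADARkd, against 6.57 in K562 SCR. Here K562 SCR was the high array and the other 3 lay between 6.21 and 6.33. The K562 difference of -0.36 is a 1.29-fold lower intensity, at rank 398 from the lowest. RBM8A was named by 2 more clusters that carried other symbols and were left out.

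**Figure D1:**
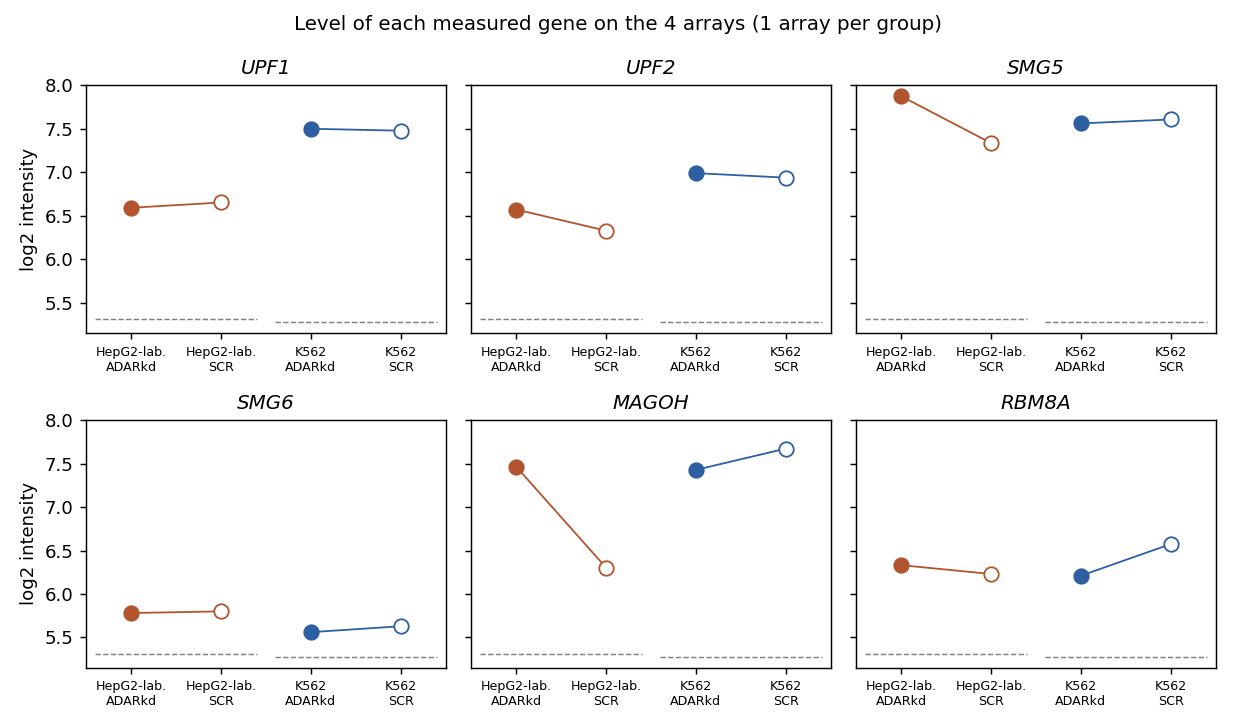
Log2 intensity of each measured gene on the 4 arrays, ADARkd filled and SCR open, 1 array per group; dashed lines mark the filter levels of 5.31 and 5.28. MAGOH in HepG2 SCR, at 6.30, sits below its other 3 arrays. Heights of different genes come from different probes and are not comparable.

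Among the 6 measured genes, all kept in both lines, the median ADARkd minus SCR difference was 0.17 on the arrays labelled HepG2, where the median of all kept genes was 0.11. The differences ran from -0.06 to 1.16, with 4 above 0 and 2 below. MAGOH alone was at least 1.5-fold higher, 1 of 6, against 12.4% of all kept genes, and it was also past 2-fold, against 2.46%. No measured gene was at least 1.5-fold lower, against 5.73% of kept genes. In K562 the median was -0.06, beside -0.07 for all kept genes, with a range of -0.36 to 0.05 and 2 genes above 0. None was 1.5-fold higher or lower in K562, where 0.267% and 0.759% of kept genes were. After quantile normalization the medians were 0.09 on the arrays labelled HepG2 and 0.01 in K562, so the K562 sign turned. With 1 array per arm, none of these differences has a replicate check.

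**Figure D2:**
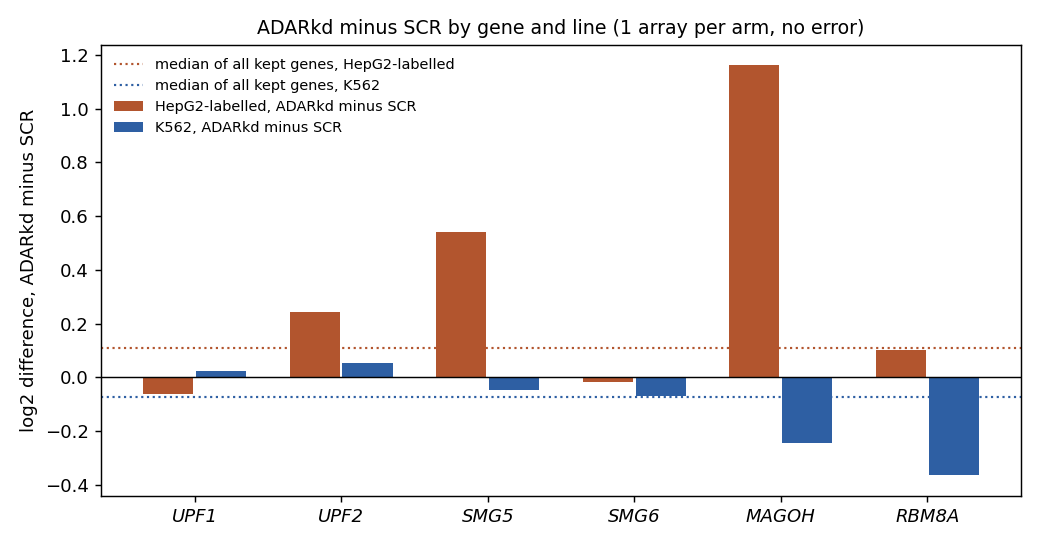
Log2 difference, ADARkd minus SCR, for each measured gene on the arrays labelled HepG2 and in K562 (bars, 1 array per arm, no error), with dotted lines at the medians of all kept genes (0.11 and -0.07). Among these genes MAGOH at 1.16 and SMG5 at 0.54 are the highest on the arrays labelled HepG2, and RBM8A at -0.36 is the lowest in K562.

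A knockdown effect common to the lines was fitted with limma, with line and arm as terms. MAGOH had a common difference of 0.46 ± 0.32, SMG5 0.25 ± 0.23, UPF2 0.15 ± 0.20, UPF1 -0.02 ± 0.21, SMG6 -0.04 ± 0.18 and RBM8A -0.13 ± 0.21 (log2, SE, 2 arrays per arm). None of the 6 passed (limma adjusted p = 0.9996 for each), and 0% of the 6204 genes tested did. ADAR, the target itself, had a common difference of -1.45 ± 0.22 and did not pass either (limma adjusted p = 0.871). At an unadjusted p under 0.05, 0 of the 6 genes and 179 of all genes (2.88%) were found. The fit has 1 residual degree of freedom, and no group has a replicate culture. Its errors rest on how far the lines disagreed and on a variance that limma shares over all tested genes. They do not measure the spread between replicates.

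The MAGOH pattern was compared with that of all other genes kept in both lines. By root mean square distance between profiles centred over the 4 arrays, the nearest of 6203 genes were PPWD1, a spliceosome-associated prolyl isomerase (distance 0.03), RPP40, a subunit of RNase P (0.04), and UTP20, a factor in small ribosomal subunit assembly (0.04). PPWD1 stood at 7.56 in HepG2 ADARkd, against 6.47 in HepG2 SCR, and at 7.57 in K562 ADARkd, against 7.77 in K562 SCR. All 3 genes had HepG2 SCR as their low array, with HepG2 differences of 1.09, 1.13 and 1.11. They were picked for closeness to MAGOH on these same 4 arrays, so this likeness follows from the choice.

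The other parts of the exon junction complex were described next. MAGOHB, the near-identical paralog of MAGOH, stood at 7.59 in HepG2 ADARkd, against 8.10 in HepG2 SCR, and at 8.15 in K562 ADARkd, against 8.18 in K562 SCR. Its HepG2 difference of -0.51 thus had the opposite sign to that of MAGOH, and HepG2 ADARkd was its low array. Cross-binding of transcripts between the clusters of these paralogs was not tested. After quantile normalization and loess the MAGOHB difference was -0.65 and -0.67, past 1.5-fold. EIF4A3, the helicase that anchors the complex, stood at 8.74 in HepG2 ADARkd, against 8.29 in HepG2 SCR, and at 8.71 in K562 ADARkd, against 8.66 in K562 SCR. EIF4A3 was low in HepG2 SCR, as MAGOH was, by a smaller difference of 0.45. CASC3, the remaining core part, shared its cluster with another gene and is given no value.

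Of 12 listed other exon junction genes 8 were measured and kept. Their median difference was 0.36 for the HepG2 label and -0.03 in K562, beside 0.11 and -0.07 for all kept genes. None of the 8 was 1.5-fold apart in either line, where 12.4% of all kept genes were higher and 5.73% lower on the arrays labelled HepG2, and 0.267% and 0.759% in K562. ALYREF, an mRNA export adaptor, was at 0.50 on the arrays labelled HepG2 and -0.43 in K562, and PYM1, which takes the complex apart, was at 0.46 and -0.03. In K562 SAP18 (0.39), SRRM1 (-0.35) and PNN (-0.06) followed ALYREF in size. The K562 median was 0.04 after quantile normalization and 0.03 after loess, so its sign turned under both. The HepG2 median was 0.15 when the filter stood at the 75th percentile, which kept 4 genes. The median of all genes kept by that filter was also 0.15.

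Other factors of nonsense-mediated decay had 15 measured genes of 19 listed. Of these, 14 were kept on the arrays labelled HepG2, with a median of 0.29, and 13 in K562, with a median of -0.05. RUVBL1, an ATPase that associates with SMG1, was 1.5-fold higher in HepG2 ADARkd (0.60) and the helicase MOV10 1.5-fold lower (-0.76). That is 1 of 14 in each direction, next to 12.4% of all kept genes higher and 5.73% lower. NCBP3 (0.58) and CTIF (-0.55) came next on those arrays. SMG9, a subunit of the SMG1 kinase complex, was higher in ADARkd in each line, by 0.50 and 0.22, as was its partner SMG8, by 0.16 and 0.22. MOV10 at -0.29 and NBAS at -0.25 were the lowest in K562. After quantile normalization and loess the HepG2 median was 0.17 and 0.15, beside 0.01 for all kept genes under either, and the K562 median was 0.02 after quantile normalization.

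The enzymes that carry out the decay had medians close to those of all kept genes. Of 27 listed decapping, deadenylation and exonuclease genes, 22 were kept in each line, with medians of 0.07 on the arrays labelled HepG2 and -0.08 in K562, next to 0.11 and -0.07 for all kept genes. After quantile normalization and loess the HepG2 median was -0.04 and -0.07, and the K562 median 0.01 and -0.01. PAN2, the catalytic subunit of a poly(A) nuclease, stood at 5.46 in HepG2 ADARkd, against 6.55 in HepG2 SCR, a difference of -1.09. EXOSC2 of the exosome (0.44), SKIC3 (-0.44) and CNOT2 (0.40) followed. In K562 EXOSC4 (-0.36), the decapping enzyme DCP2 (-0.34), the 5′ exonuclease XRN1 (-0.33) and DCP1A (-0.31) were farthest from 0.

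Genes with transcripts known as substrates of the pathway formed the last list. Each value is that of a gene's whole transcript cluster. A spliced form that the pathway degrades was therefore not told apart from the gene's other forms, for TRA2B, RSRC2 and SRSF3 (0.62 on the arrays labelled HepG2) as for the rest. Of 30 listed, 20 were kept in each line, and the median difference was 0.38 for the HepG2 label and -0.15 in K562. On the arrays labelled HepG2, 6 of 20 were at least 1.5-fold higher and none lower, next to 12.4% and 5.73% of all kept genes. GADD45A, a stress gene, stood at 7.15 in HepG2 ADARkd, against 6.02 in HepG2 SCR (1.13), followed by the splicing regulator TRA2B (0.97), SESN2 (0.72) and RSRC2 (0.70). In K562 none was 1.5-fold higher (0.267% of kept genes) and 2 were lower (0.759%): the stress transcription factor DDIT3 (-0.69) and the cystine transporter SLC7A11 (-0.69). SESN2 (-0.49) and the asparagine synthetase ASNS (-0.41) followed. On the arrays labelled HepG2 the same genes were higher in ADARkd: DDIT3 (0.70), SLC7A11 (0.37), SESN2 (0.72) and ASNS (0.19). Quantile normalization gave medians of 0.28 for the HepG2 label and -0.06 in K562, and loess gave 0.23 and -0.08. Several of these transcripts, ASNS and SLC7A11 among them, are also known targets of the stress factor ATF4, so the list does not read decay alone. ATF4 itself, named after its value was seen, differed by -0.13 and -0.0047 in transcript level. The activity of the ATF4 protein was not measured. Transcription and decay cannot be told apart in these levels.

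**Figure D3:**
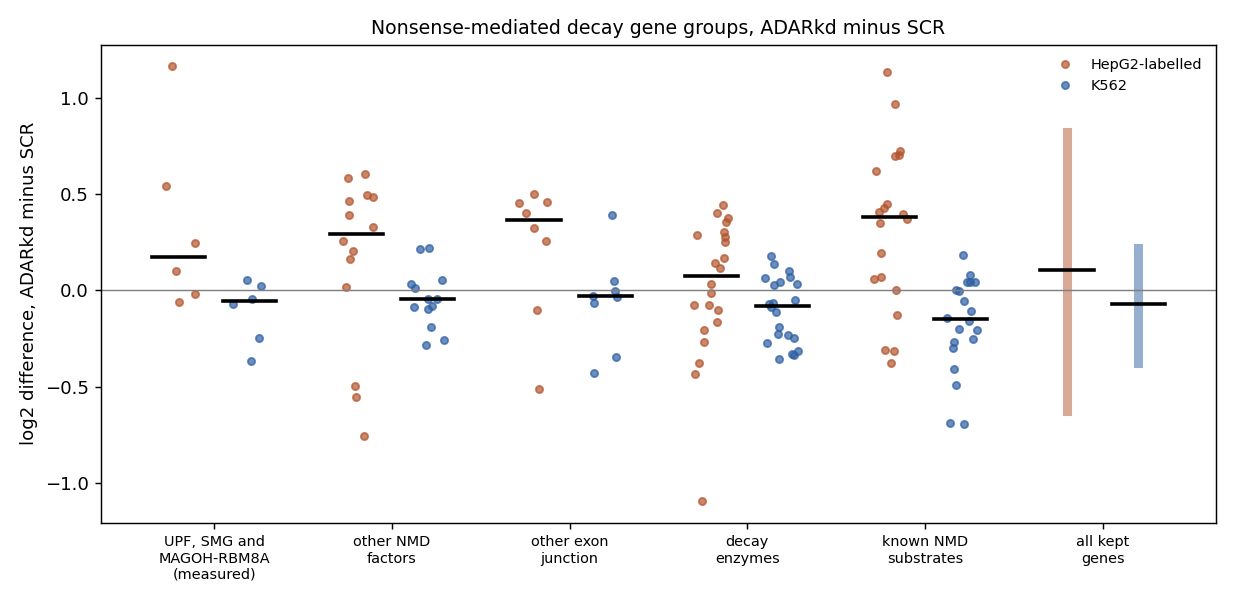
Log2 difference, ADARkd minus SCR, of the kept genes of each list (points; black bars are medians) on the arrays labelled HepG2 and in K562; for all kept genes the coloured bar spans the 5th to 95th percentile. The known substrates have medians of 0.38 and -0.15 and the decay enzymes 0.07 and -0.08, beside 0.11 and -0.07 for all kept genes.

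Fibroblast and stromal markers also differed between the arms on the arrays labelled HepG2. Of 7 kept there (of 11 measured), 4 were at least 1.5-fold lower in ADARkd (5.73% of all kept genes) and 2 higher (12.4%), with a median difference of -1.12. The lower ones were COL3A1 (-2.42), FN1 (-1.80), FAP (-1.66) and COL1A1 (-1.12). The higher ones were LUM (0.78) and DCN (0.64), both outside the rule for naming and picked once their values were known. The summed intensity of the 11 measured markers, to which LUM and DCN contribute most on the arrays labelled HepG2, was 1819 in HepG2 ADARkd and 1592 in HepG2 SCR, and in K562 575 in ADARkd and 647 in SCR. The lowest log2 value among these markers was 2.95. The part of cell state in the MAGOH, SMG5 and substrate values of these arrays was not tested. In levels of whole cultures, fewer cells of a type and less RNA per cell cannot be told apart.

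The lines themselves were compared as the backgrounds of the knockdown, with K562 minus the arrays labelled HepG2 taken from the same limma model. Here the ADARkd and SCR arrays of a line stand in for replicates. The errors and adjusted p-values of this comparison thus do not measure the spread between replicate cultures. Of the 6 genes, 0 were called higher in K562 and 0 lower, at an adjusted p under 0.05 and at least 2-fold, against 10.3% and 14.7% of 8028 genes tested. UPF1 averaged 7.49 on the K562 arrays and 6.62 on those labelled HepG2, a difference of 0.87 ± 0.20 (SE, 2 arrays per line; limma adjusted p = 0.0121), or 1.83-fold. It passed the p threshold alone, as did 19.5% of genes in that direction, and stayed under the 2-fold bound. The UPF1 difference was 0.91 between the ADARkd arrays and 0.83 between the SCR arrays.

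UPF2 averaged 6.97 in K562 and 6.45 on the arrays labelled HepG2, a difference of 0.51 ± 0.20 (limma adjusted p = 0.0763, or 0.0324 after quantile normalization). MAGOH differed by 0.67 ± 0.33 (limma adjusted p = 0.148), made up of -0.04 between the ADARkd arrays and 1.37 between the SCR arrays, so its line difference rests on the SCR arrays. SMG5 differed by -0.02 ± 0.23, SMG6 by -0.20 ± 0.20 and RBM8A by 0.11 ± 0.21 (limma adjusted p of 0.949, 0.452 and 0.699). SMG5 and RBM8A each had opposite signs between the ADARkd arrays (-0.31 and -0.12) and between the SCR arrays (0.27 and 0.34).

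**Figure D4:**
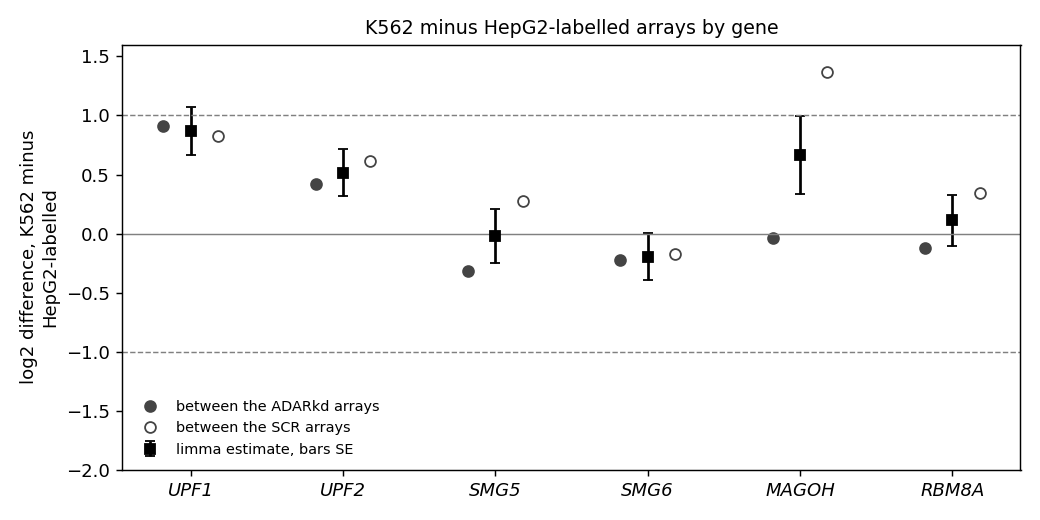
Log2 difference, K562 minus HepG2-labelled, of each measured gene: the limma estimate with its SE (squares), the difference between the ADARkd arrays (filled) and between the SCR arrays (open); dashed lines mark 2-fold. The UPF1 values of 0.91 and 0.83 lie close together, and the MAGOH values of -0.04 and 1.37 lie far apart.

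Beyond the core list, 1 of 14 tested other decay factors was called higher in K562, NBAS, at 1.22 ± 0.21 (limma adjusted p = 0.00309). None of 8 other exon junction genes was called. Of 22 decay enzymes 2 were called higher in K562 and 0 lower. DCP2, the catalytic decapping enzyme, stood at 7.76 in K562 ADARkd and 8.09 in K562 SCR, against 5.53 in HepG2 ADARkd and 5.23 in HepG2 SCR, with a difference of 2.54 ± 0.23 (limma adjusted p = 0.000161). The other was EDC4, a scaffold of the decapping complex, at 1.14 ± 0.20, which was named after its value was seen. The DCP2 difference is 5.82-fold, and its mean of 5.38 on the arrays labelled HepG2 is near the filter level of 5.31. Among the known substrates 2 of 21 tested were called higher in K562 and 3 lower, with SLC7A11 at -2.63 ± 0.27 the farthest. In each of these 4 lists the counts stand beside 10.3% called higher and 14.7% called lower among all genes, and those of the decay enzymes called higher and of the substrates are near these shares.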

How the data were processed

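Total RNA was purified with TRIzol and biotin-labelled for Affymetrix arrays, per the labels' protocols. Per the submitters' processing notes, RMA (version not given) and build hg18 were used, and no further step is given in the sources used here. The deposited values are intensities on a linear scale, 1 per transcript cluster, for 17881 clusters, 14432 of them with 1 gene symbol, 2408 with several and 1041 with none. By Entrez number 14404 single symbols were matched to a RefSeq table and 0 changed. For the 197 genes with several clusters the brightest was used.

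From these intensities log2 was taken with no offset, and genes whose mean in a line reached the median gene's were kept there. Differences within a line have no test. The model of line and arm was fitted in R 4.3.3 by limma 3.58.1 (lmFit, eBayes with trend, two-sided, Benjamini-Hochberg over all tested genes, threshold 0.05) and was tested on simulated data. A difference between lines also had to reach 2-fold. Figures were drawn with matplotlib 3.10.9. Signal over background was not analysed here, and the number of arrays limits the precision.

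The members and lists were chosen with earlier results of these data known. All measured members are named, with up to 4 genes per further list and line by size of difference, and the 3 genes nearest to MAGOH. Alternatives were quantile and loess normalization, log2(value + 16), the mean of all clusters, no filter or a filter at the 75th percentile, and no trend. Their use on the further lists was chosen after seeing the data.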

Additional observations from a re-analysis of the deposited data

Results flagged for a closer look

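In 4 of the 6 measured genes ADARkd minus SCR had opposite signs in the lines, as had 53.0% of the 6204 genes kept in both. The difference on the arrays labelled HepG2 minus that in K562 was 1.41 for MAGOH, 0.58 for SMG5, 0.47 for RBM8A and -0.0829 for UPF1. With 1 array per arm these differences between the lines were not tested. The SMG5 value in K562 was 0.05 after quantile normalization and 0.03 after loess, so its signs were then alike in the lines, while those of MAGOH, RBM8A and UPF1 stayed opposite under both.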

How the results depend on the processing

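The median of the measured genes on the arrays labelled HepG2 was 0.0927 after quantile normalization and 0.0892 after loess, 0.145 with log2(value + 16) and 0.539 where the filter stood at the 75th percentile, which kept SMG5 alone. In K562 it was 0.0056, -0.0128 and -0.0467 under the first 3 settings and -0.0117 with the stricter filter, which kept 4 genes. No setting called any gene in the common effect, so the 0 calls among the measured genes there say nothing about their stability, and none of the measured genes was called between the lines under any setting. MAGOH on the arrays labelled HepG2 ran from 1.02 to 1.16 over the scalings, offset and cluster rule, always past 2-fold, but lay under the stricter filter. The adjusted p of UPF1 between the lines ran from 0.00690 to 0.0149, and that of UPF2 from 0.0324 to 0.0973.

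Among the further lists, in K562 the exon junction median was 0.0389 after quantile normalization, 0.0295 under loess and 0.0233 with the stricter filter, that of the other decay factors 0.0182 and that of the decay enzymes 0.0090 after quantile normalization. On the arrays labelled HepG2 the decay enzyme median was -0.0416 and -0.0726 after quantile normalization and loess. The cause was not tested. Of kept genes at least 1.5-fold apart there, 68.3% were higher in ADARkd (879 against 408), 52.8% after quantile normalization (602 against 539) and 53.9% under loess (635 against 543). In K562 26.0% were higher (19 against 54), 61.2% after quantile normalization (41 against 26), 39.1% under loess (25 against 39), 36.7% with the offset (11 against 19), 68.8% with no filter (170 against 77) and 7.14% with the stricter filter (1 against 13). The arms were compared within lines, since line was a term of the model; no further pairing was possible because the labels carry no replicate numbers. Signal over background was not analysed.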
